A study of Mus musculus with 24 samples.

Results

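The comparison described here set the livers of male C3H/HeJ mice against those of male A/J mice, both inbred strains, on the control diet. It used 8 of the 24 arrays of the series: the 4 arrays labelled as control for C3H/HeJ and the 4 labelled as control for A/J, chosen by those labels alone. All mice were 20 weeks old and had eaten the diet for 12 weeks, from 8 weeks of age. The control diet was the amino acid-defined deficient diet of the study to which folic acid (2 mg/kg), choline bitartrate (0.3%) and methionine (to 0.4%) had been added, so both strains ate a defined and iron-supplemented food. The labels name no transgene or drug in these groups. The 8 arrays of the same strains on the deficient diet (0.17% methionine, no choline, no folic acid) served below as a second, separate set of animals' livers, and the WSB/EiJ strain was left aside. The labels number the 4 samples of a group as replicates without naming the animals, so the spread behind each p-value is that of the 4 samples and may be technical. The hour of liver collection is not in the labels.

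Inbred strains differ from each other at many fixed sequence variants and not at any deliberate change, so a comparison of their livers reads the sum of all such differences at once. Liver expression is set in part by the pulses of growth hormone that differ between the sexes, by the nuclear receptors of the PPAR family that sense fatty acids, by the circadian clock and by the immune cells that live in the sinusoids. A variant that lies under a microarray probe can also weaken binding without any change in the RNA, which is why several probes of a gene were read side by side where the array had them.

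Each value is the log2 processed signal of a 60-base probe minus the 75th percentile of its array, so 0 is a level that 75% of gene probes lie below. The share of gene spots the scanner called well above background ran from 44.4% to 51.7% over the 8 arrays, and no gene spot was saturated. The number of arrays, 4 a strain, limits the precision of every value below. Differences are C3H/HeJ minus A/J on the log2 scale, so a negative value means a higher level in A/J. A gene was called when the limma adjusted p fell below 0.05, and its brightest probe stood for it.

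Of 13775 genes tested, 3098 were called (22.5%). Of these, 1822 were higher in C3H/HeJ (13.2% of genes tested) and 1276 were higher in A/J (9.26%). With the arrays scaled instead to the E1A spike-in probes, which read an added control RNA, 1155 were higher in C3H/HeJ and 1251 higher in A/J, so which strain had more calls depends on the scaling. The median difference over all genes was 0.049, and the median size of a called difference was 0.73. A difference of at least 1 log2 unit was found for 1002 called genes (510 higher in C3H/HeJ, 492 higher in A/J), and of at least 3 for 117 (62 and 55). The 4 arrays of a strain did not overlap those of the other for 2930 of the called genes, against 29.5% of all genes tested. The arrays came from 3 slides, each holding both strains, and 3079 called genes (99.4%) had the same sign on all 3. The slides hold the same 8 arrays that gave the calls, so that share was nearly fixed by the calling and is no separate check. With the slide as a block, 2758 genes were called. A/J control 4 and C3H/HeJ control 2 stood furthest from their groups, with correlations of 0.982 to 0.987 and 0.984 to 0.986 with the other arrays of their group. Without both, 3029 genes were called, and 2446 of the calls above were called alike. Xist was above background on none of the 8 arrays. Of 4 genes tested with a probe placed on the Y chromosome, 3 were called, all higher in C3H/HeJ. The Y-linked genes Ddx3y (1.13), Eif2s3y (1.10) and Uty (1.11) were called in that direction.

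**Figure D1:**
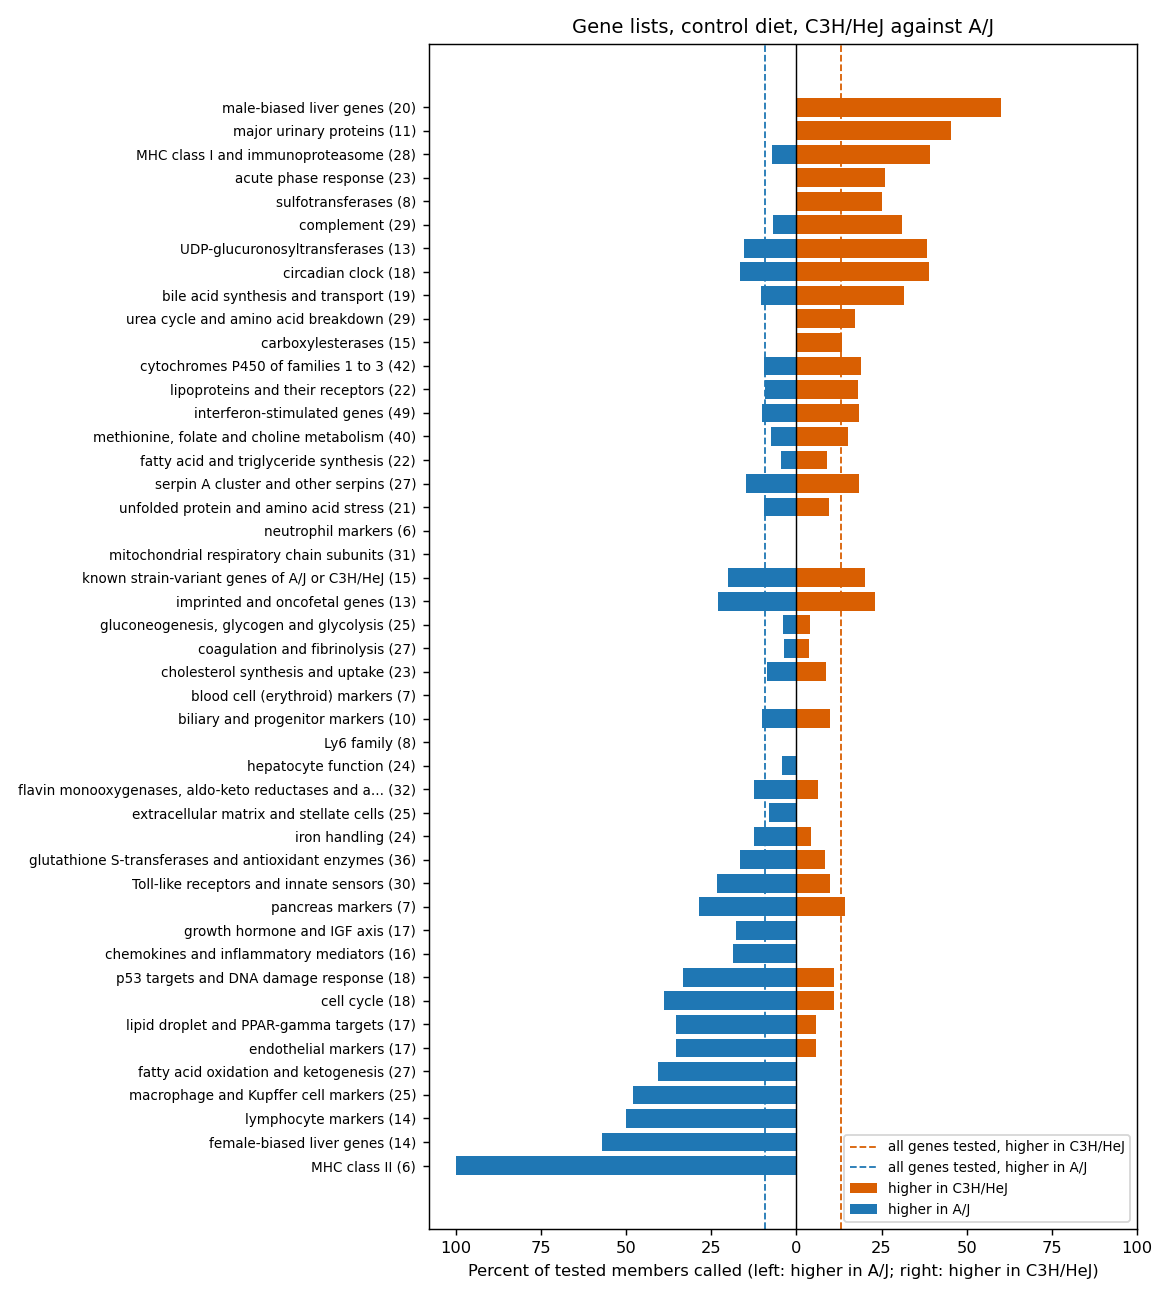
Share of the tested members of each gene list that was called (percent, x axis), to the left where the level was higher in A/J and to the right where it was higher in C3H/HeJ, with the number tested in parentheses; lists with at least 6 tested members are drawn. Dashed lines mark the shares over all genes tested, 13.2% and 9.26%. All 6 MHC class II genes tested lie to the left, as do 8 of 14 female-biased genes tested, while 12 of 20 male-biased genes lie to the right.

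The members of 47 gene lists were followed, and the plot of called shares by list shows them. Lists for hepatocyte identity and for mitochondrial respiration gave few calls. Of 24 hepatocyte function genes, 1 was called, and their median difference was 0.04, against 0.049 for all genes. That gene was G6pc, which encodes the last enzyme of glucose release, with levels of 6.21, 5.96, 6.27 and 5.71 in A/J and 4.41, 4.25, 4.59 and 5.32 in C3H/HeJ (difference -1.40, SE 0.24, adjusted p = 0.00391). None of the 31 respiratory chain subunits was called, and their median was 0.12. The summed level of the hepatocyte genes was 13.54 to 13.92 in A/J and 13.56 to 14 in C3H/HeJ, so the labelled tissue was borne out on all 8 arrays and the ranges overlapped.

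Genes known to be expressed more in female than in male mouse liver were higher in the A/J males, and genes known as male-biased were higher in the C3H/HeJ males. Of 20 female-biased genes on the array, 14 passed the background filter, which the 4 arrays of either strain can meet alone. Of the 14 tested, 8 were called higher in A/J (57.1%) and none higher in C3H/HeJ, with a median difference of -2.39. Cyp2b13, Slc22a27 and Hao2, among the 8, were well above background on no C3H/HeJ array. They entered the test by their A/J signal alone, which favoured a call toward A/J, so the share and the median depend in part on the filter. Of 20 male-biased genes, 12 were called higher in C3H/HeJ (60%) and none higher in A/J, with a median of 0.59. The medians had the same sign on each slide, at -2.75, -1.93 and -2.24 for the female-biased genes and 1.06, 0.55 and 0.68 for the male-biased genes.

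Among the female-biased genes, Cyp2b13, a steroid- and drug-metabolising cytochrome P450, read 1.24, -0.59, 2.71 and 0.52 in A/J and -6.64, -5.49, -6.49 and -5.71 in C3H/HeJ. It was well above background on all 4 A/J arrays and on none of C3H/HeJ. Its level in A/J was at least 31.3-fold higher, a lower bound set by the dimmest signal still well above background on each C3H/HeJ array (adjusted p = 0.000138). The neighbouring family member Cyp2b9 was detected on all 8 arrays, at 3.05, 1.33, 3.16 and 1.93 in A/J and -1.71, -3.15, -0.82 and -2.15 in C3H/HeJ (difference -4.33, SE 0.55, adjusted p = 0.00097), with no overlap. Because members of the Cyp2b family are alike in sequence, these probes may read each other's transcripts. The organic anion transporter gene Slc22a27 was at least 6.37-fold higher in A/J (adjusted p = 6.33e-05) and Hao2, a hydroxy acid oxidase of peroxisomes, at least 4.04-fold (adjusted p = 0.000538). Acot3 (-2.70), Fmo2 (-2.08) and Nipal1 (-1.79) were also called. Cyp2a4 (-0.16) and Sult1e1 (-0.35) were not called.

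Among the male-biased genes, Cspg5, a chondroitin sulfate proteoglycan, read -1.25, -0.40, -0.75 and -1.04 in A/J and 3.46, 2.99, 3.27 and 2.94 in C3H/HeJ. All 4 C3H/HeJ arrays lay above all 4 of A/J (difference 4.03, SE 0.20, adjusted p = 8.24e-06). Dntt, named for the terminal deoxynucleotidyl transferase of lymphocytes, read -1.62, -1.86, -0.97 and -1.96 in A/J and 2.42, 1.30, 1.92 and 2.66 in C3H/HeJ (difference 3.68, SE 0.32, adjusted p = 0.000125). Cyp7b1, the oxysterol hydroxylase of the alternative bile acid pathway, read 6.10, 6.77, 6.33 and 6.18 in A/J and 8.43, 9.03, 8.66 and 8.78 in C3H/HeJ. It was again higher on every C3H/HeJ array (difference 2.38, SE 0.18, adjusted p = 5.06e-05). Gstp1, a glutathione S-transferase, was 4.22-fold higher in C3H/HeJ by its brightest probe (difference 2.08, SE 0.11, adjusted p = 1.25e-05), and its other probe gave 2.31. Smaller differences were called for the steroid dehydrogenase gene Hsd3b5 (0.93) and the transporter gene Slco1a1 (0.66). Elovl3 (-0.29) and Cyp2d9 (0.34) were not called. The major urinary proteins are pheromone carriers made in large amounts by male liver. Of 11 of their genes tested, 5 were called higher in C3H/HeJ and none higher in A/J, with a median of 0.42. Mup21 read 8.32, 8.26, 8.58 and 7.99 in A/J and 9.75, 9.84, 9.44 and 9.84 in C3H/HeJ (difference 1.43, SE 0.14, adjusted p = 0.000276) and Mup5 differed by 1.61 (adjusted p = 0.000667). The Mup genes are near copies of each other, so their probes are not independent, and 2 were called without A/J control 1 or 4 and 3 without A/J control 2 or C3H/HeJ control 1 or 4. With the slide as a block, or with scaling to the spike-in probes, 3 were called.

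**Figure D2:**
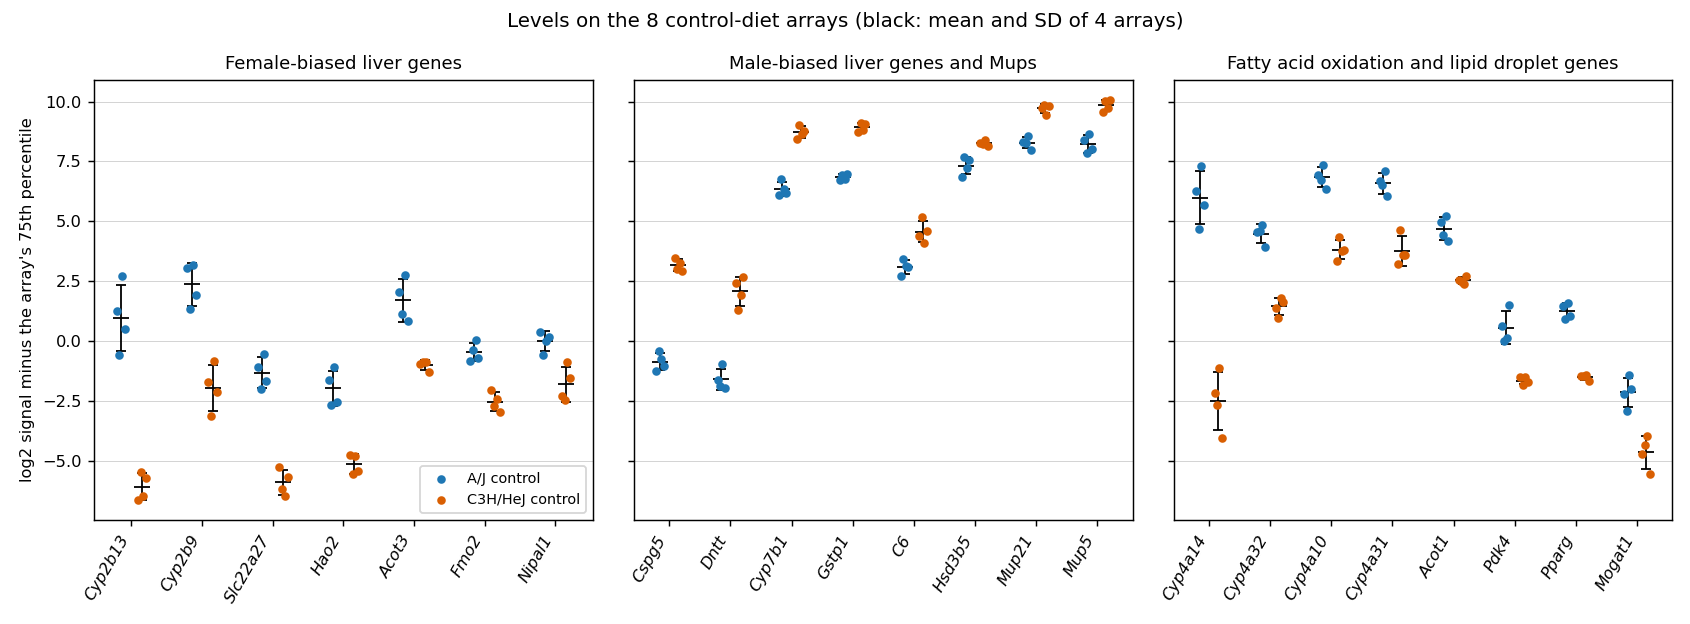
Levels on the 8 control-diet arrays (log2 signal minus the 75th percentile of the array, y axis) of female-biased liver genes, male-biased genes and major urinary proteins, and genes of fatty acid oxidation and lipid droplets (x axis), with a point for each array and black bars for the mean and SD of 4 arrays. The A/J points lie above the C3H/HeJ points for every gene of the left and right panels and below them for every gene of the middle panel.

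Lists around the sex-biased genes gave mixed calls. In the growth hormone and IGF list, 3 of 17 genes were called, all higher in A/J, with a median of -0.22, and without A/J control 2, 2 were called higher in C3H/HeJ. The prolactin receptor gene Prlr differed by -1.56 (adjusted p = 0.0102), with both probes called, and Igfbp1, which encodes an IGF-binding protein of the liver, differed by -1.61 (adjusted p = 0.00396). Stat5b, the main mediator of growth hormone signals in liver, was not called (-0.24), nor was Igf1 (-0.0098). In the bile acid list, 6 of 19 genes were called higher in C3H/HeJ and 2 higher in A/J, with a median of 0.06. Nr0b2, which encodes the repressor SHP, was higher in A/J at 1.73, 1.75, 1.64 and 1.55 in A/J and 0.11, -0.19, 0.068 and 0.75 in C3H/HeJ (difference -1.48, SE 0.19, adjusted p = 0.000854). Of 13 UDP-glucuronosyltransferase genes, 5 were higher in C3H/HeJ and 2 in A/J, and the first count was 1 to 3 without any array other than A/J control 3 or C3H/HeJ control 4, 2 with the slide as a block and 3 with scaling to the spike-in probes. Without the 2 arrays that stood apart, 2 and 4 were called. The 2 genes higher in A/J showed the largest differences of the list. Ugt3a1 read 5.04, 4.95, 5.05 and 4.52 in A/J and 1.82, 1.99, 1.23 and 1.00 in C3H/HeJ (difference -3.38, SE 0.23, adjusted p = 3.36e-05). Ugt1a10, one of several transcripts that share the 3′ exons of the Ugt1a locus, differed by -3.33 (adjusted p = 3.53e-05), with both probes called.

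Genes of omega-oxidation and of acyl-CoA hydrolysis, many of them known targets of the fatty acid receptor PPAR-alpha, were higher in A/J. Of 27 genes of fatty acid oxidation and ketogenesis tested, 11 were called higher in A/J (40.7%) and none higher in C3H/HeJ, with a median of -0.24. The slide medians were -0.39, -0.35 and -0.49, and 11 genes were called higher in A/J also with the slide as a block and without the 2 arrays that stood furthest from their groups. The called members did not include the genes of mitochondrial beta-oxidation itself, such as Cpt2 (0.17), Acadm (-0.026) and Hadha (0.15), or Ppara (0.42), none of which was called.

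Cyp4a14, a fatty acid omega-hydroxylase, had the largest difference of the list, at 6.28, 4.68, 7.31 and 5.69 in A/J and -2.18, -2.67, -1.12 and -4.06 in C3H/HeJ. The groups were separated by more than 5 log2 units, and the fitted difference was -8.49 (SE 0.69, adjusted p = 8.69e-05), with 3 of 4 C3H/HeJ arrays well above background. Its relatives Cyp4a10 (-3.04), Cyp4a31 (-2.83) and Cyp4a32 (-3.04) were called in the same direction. All 3 probes of Cyp4a10 and all 3 of Cyp4a31 were called higher in A/J, between -3.92 and -1.54. These genes lie side by side on chromosome 4 and are close copies. The pair of probes below shows how alike the targets are, with the bases that differ in capitals, 6 of 60, so cross-hybridisation between the copies is possible and the probes do not measure the genes independently. The Cyp4a10 probe lies at chr4:115198463-115198522 and the Cyp4a31 probe at chr4:115243923-115243982 (both mm9, plus strand), and they differed between the strains by -2.72 and -1.54.
Cyp4a10: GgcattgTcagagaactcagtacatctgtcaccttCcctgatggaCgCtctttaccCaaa
Cyp4a31: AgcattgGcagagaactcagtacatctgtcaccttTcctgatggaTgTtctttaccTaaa

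Acyl-CoA thioesterase genes, which release free fatty acids from acyl-CoA, followed the same direction. Acot1, Acot2 and Acot3 belong to 1 gene family, so their probes may not be independent, which was not tested. Acot3 is also among the female-biased genes described above. Acot1 read 4.95, 4.41, 5.21 and 4.20 in A/J and 2.56, 2.47, 2.39 and 2.73 in C3H/HeJ (difference -2.16, SE 0.22, adjusted p = 0.00027), and Acot3 read 2.05, 1.12, 2.77 and 0.84 in A/J and -0.98, -0.87, -0.90 and -1.31 in C3H/HeJ (difference -2.70, SE 0.39, adjusted p = 0.00174). Both were separated without overlap, and both probes of Acot3 were called. Acot2 differed by -2.29 (adjusted p = 0.0016) and was well above background on 2 of 4 C3H/HeJ arrays. Pdk4, which restrains glucose oxidation by phosphorylating pyruvate dehydrogenase, read 0.64, -0.010, 0.12 and 1.49 in A/J and -1.51, -1.85, -1.53 and -1.72 in C3H/HeJ (difference -2.21, SE 0.30, adjusted p = 0.00136). The peroxisomal bifunctional enzyme gene Ehhadh differed by -0.88 (adjusted p = 0.00227), and the pantetheinase gene Vnn1 by -1.56 (adjusted p = 0.0175). The Vnn1 call was lost without the 2 arrays that stood apart (adjusted p = 0.0722).

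Genes of lipid droplets include many targets of PPAR-gamma in fatty liver. Of 17 tested, 6 were called higher in A/J and 1 higher in C3H/HeJ (41.2% in all), with a median of -0.74. The 6 include Hsd17b13 by its brightest probe, a gene whose probes went in opposite directions. Without A/J control 2 the count higher in C3H/HeJ was 2. Pparg itself read 1.48, 0.93, 1.60 and 1.05 in A/J and -1.47, -1.45, -1.43 and -1.67 in C3H/HeJ. Its A/J arrays all lay more than 2 log2 units above its C3H/HeJ arrays (difference -2.77, SE 0.16, adjusted p = 1.42e-05). Mogat1, an enzyme of triglyceride synthesis, differed by -2.50 (adjusted p = 0.00284), with 1 of 4 C3H/HeJ arrays well above background. Cidea, a lipid droplet fusion protein, was at least 4.86-fold higher in A/J (adjusted p = 0.0113), with A/J control 4 the highest at 0.85. Hilpda, an inhibitor of the lipase ATGL, differed by -0.77 (adjusted p = 0.00153) with both probes called. The Hilpda probes overlap (chr6:29225127-29225186 and chr6:29225141-29225200, mm9), so they are not separate readings. The 1 gene higher in C3H/HeJ was Plin3, a droplet coat protein, at 0.63 (adjusted p = 0.0043). Fitm1 was called (-1.10, adjusted p = 0.0463), but that call was lost when any array other than A/J control 1 was left out. The droplet genes Plin2 (0.0085) and Cidec (-0.87) were not called. The adipocyte gene Cfd read -2.97, -0.49, -3.19 and 3.18 in A/J and -4.50, -4.01, -6.00 and -5.56 in C3H/HeJ (adjusted p = 0.0517), and the mean level of the 3 tested adipose markers was 2.33 to 4.38 in A/J and 1.21 to 1.71 in C3H/HeJ. The part of adipose RNA in the values above was not tested.

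Hsd17b13, a lipid droplet enzyme of the hepatocyte, had the lowest adjusted p of the droplet list and also probes that went in opposite directions. By its brightest probe it read 6.34, 6.54, 6.4 and 6.29 in A/J and 1.58, 1.79, 1.66 and 1.69 in C3H/HeJ, a tight separation (difference -4.71, SE 0.090, adjusted p = 7.26e-08). By its other probe it read -2.38, -1.93, -2.12 and -2.34 in A/J and 3.03, 2.93, 2.96 and 3.11 in C3H/HeJ, a difference of 5.20. The mean of both probes gave 0.25, and no direction can be given for the gene. The 2 probes start 8091 bases apart on the minus strand of chromosome 5 (mm9), at chr5:104392792-104392851 for the brighter and at chr5:104384701-104384760 for the other. They are shown because they read the same gene with opposite results. The first is given whole, with its last 3 bases in capitals, and the second by its first 30 bases. Whether the capitals are a stop codon, which exon or UTR either probe lies in, and whether strain variants lie under them were not tested.
Hsd17b13, higher in A/J: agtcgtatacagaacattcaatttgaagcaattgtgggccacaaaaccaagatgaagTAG
Hsd17b13, higher in C3H/HeJ: tacccatgccttggtatatgagtatctgtg

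Cholesterol and lipoprotein genes differed singly. In the cholesterol list, 4 of 23 genes were called, 2 in each direction (0 to 2 higher in C3H/HeJ and 1 to 3 in A/J as single arrays were left out, and none higher in C3H/HeJ with the slide as a block, spike-in scaling, quantile normalization or median centring). Hmgcs1, the synthase of the mevalonate pathway, had the largest difference at 8.05, 7.59, 7.55 and 7.83 in A/J and 6.39, 6.35, 6.04 and 6.19 in C3H/HeJ (difference -1.51, SE 0.14, adjusted p = 0.000142), with both probes called. Of 22 lipoprotein genes, 4 were higher in C3H/HeJ and 2 in A/J, the latter 1 without A/J control 2 or 3 or C3H/HeJ control 1, 3 or 4. Apoa4, a lipoprotein of intestine and fatty liver, read 2.63, 2.45, 3.12 and 2.46 in A/J and 4.66, 5.41, 5.04 and 4.35 in C3H/HeJ (difference 2.20, SE 0.24, adjusted p = 0.00045). Apoc2, the activator of lipoprotein lipase, differed by 0.89 (adjusted p = 0.00024). In the list of fatty acid and triglyceride synthesis, 3 of 22 genes were called, with a median of 0.03, and 0 or 1 in each direction without any single array. None was higher in C3H/HeJ under those 4 alternatives.

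The clock genes separated the strains in a pattern of opposite arms. The transcriptional activators BMAL1 (gene Arntl) and CLOCK drive the Per, Cry and PAR bZIP genes through E-box elements, and the PAR bZIP factors DBP and TEF act on D-box elements, which NFIL3 represses. Of 18 clock genes tested, 7 were called higher in C3H/HeJ and 3 higher in A/J (55.6% in all), with a median of 0.53. The 3 genes higher in A/J were Arntl, Clock and Nfil3. The 7 higher in C3H/HeJ were Per2, Per3, Cry2, Dbp, Tef, Ciart and Usp2. With the slide as a block, 4 and 3 were called, and the first count was 4 without C3H/HeJ control 2. The median of the list was 0.11, 0.21 and 1.07 on slides 1, 2 and 3. Slide 3 held A/J control 4 and C3H/HeJ control 2, and without both arrays the median was 0.28, with 7 and 4 genes called.

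On the activator side, Arntl read 1.17, 1.14, 0.52 and 1.83 in A/J and -1.59, -2.81, -1.47 and -1.12 in C3H/HeJ. Each A/J array lay above each C3H/HeJ array (difference -2.91, SE 0.39, adjusted p = 0.00119). Clock differed by -0.39 (adjusted p = 0.0148). Nfil3, which encodes the D-box repressor and no activator, differed in the same direction by -0.74 (adjusted p = 0.00595). Among the repressors of BMAL1 and CLOCK, Per3 read -5.55, -3.98, -4.20 and -6.52 in A/J and -0.78, -0.22, -0.72 and -1.03 in C3H/HeJ. It was well above background on 1 of 4 A/J arrays and on all of C3H/HeJ (difference 4.37, SE 0.52, adjusted p = 0.00067). Per2 read -1.45, -1.56, -1.0 and -1.78 in A/J and 0.16, 0.88, -0.13 and -0.084 in C3H/HeJ (difference 1.65, SE 0.25, adjusted p = 0.00224). Cry2 differed by 1.28 (adjusted p = 0.00697), but its other probe was not called and gave -0.23. Ciart, a further repressor of BMAL1 and CLOCK, was well above background on 3 of 4 A/J arrays and read -2.96, -3.05, -2.31 and -6.43 in A/J and 0.12, 0.25, -0.98 and -1.21 in C3H/HeJ (difference 3.23, SE 0.84, adjusted p = 0.026). A/J control 4 had the lowest value of all 8 arrays.

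Among the output genes, Dbp read 4.97, 4.91, 5.88 and 1.32 in A/J and 7.49, 7.85, 7.43 and 7.36 in C3H/HeJ. A/J control 4 lay more than 3 log2 units below the other A/J arrays (difference 3.26, SE 0.85, adjusted p = 0.0266), and both Dbp probes were called. Tef read 6.31, 6.23, 6.45 and 4.60 in A/J and 7.30, 8.10, 7.27 and 7.30 in C3H/HeJ, again lowest on A/J control 4 (difference 1.59, SE 0.41, adjusted p = 0.0244). Usp2, a deubiquitinase with a strong daily rhythm, read -0.85, -1.05, -0.084 and -1.05 in A/J and 2.48, 3.87, 1.86 and 1.65 in C3H/HeJ (difference 3.23, SE 0.47, adjusted p = 0.00189). The Dbp call was lost when any C3H/HeJ array was left out (adjusted p 0.0569 to 0.059), the Ciart call without C3H/HeJ control 1 or 2, and the Tef call without C3H/HeJ control 2. Nr1d1 (0.29), Nr1d2 (-0.18) and Per1 (-0.47) were not called. Strain and hour of collection cannot be told apart here.

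**Figure D3:**
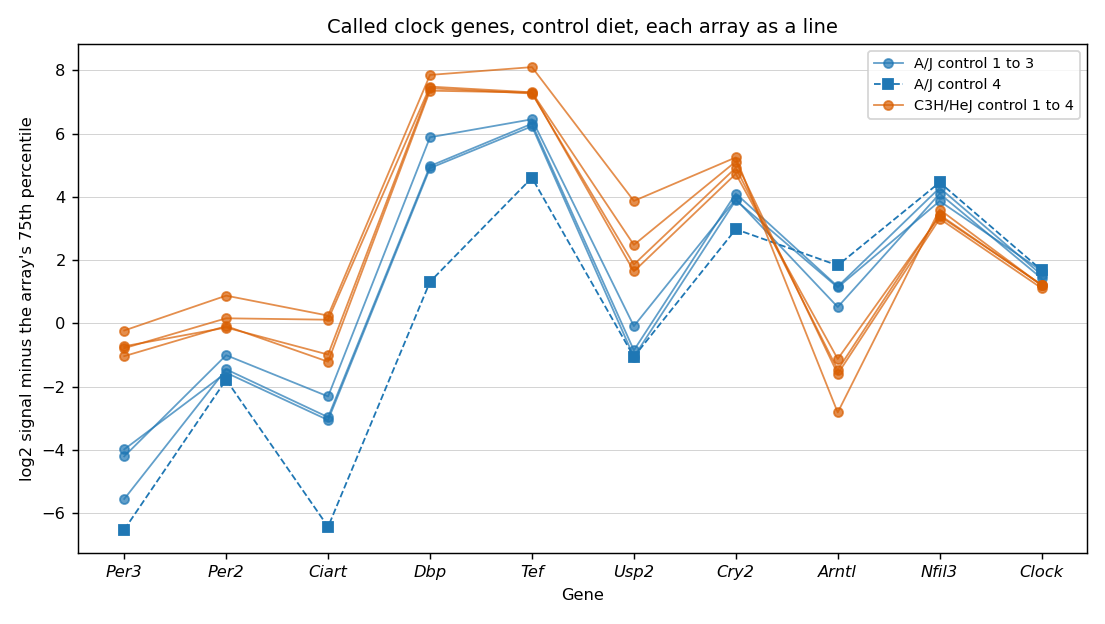
Levels of the 10 called clock genes (x axis) on each control-diet array (log2 signal minus the 75th percentile of the array, y axis), with a line for each array and a dashed line with squares for A/J control 4. The C3H/HeJ lines lie above those of A/J from Per3 to Cry2 and below them for Arntl, Nfil3 and Clock, and A/J control 4 is lowest for Per3, Ciart, Dbp and Tef.

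The promoters of 17 of the clock genes could be read from RefSeq (GRCm38.p6, 250 bases before each start), and 2 are shown because they carry repeated copies of the motifs that the clock factors bind. Over 32851 RefSeq promoters of that length, 6.02% held the E-box CACGTG and 0.819% held the D-box TTATGTAA on either strand, and 0.0609% held 3 or more E-boxes and 0.0183% 2 or more D-boxes. An E-box stood in a promoter of 5 of the 17 genes (Bhlhe41, Ciart, Cry1, Per1 and Tef) and a D-box in 1 (Per3). These counts are by gene over 22 promoters and the shares above are by promoter, so they are not like for like. Ciart, Tef and Per3 are among the called clock genes, while Bhlhe41, Cry1 and Per1 are not. The Per3 promoter, chr4:151044708-151044915 on the minus strand, held 2 D-boxes, 205 and 158 bases before the start. The Ciart promoter, chr3:95882258-95882478 on the minus strand, held 3 E-boxes, 116, 58 and 44 bases before the start. Motifs are in capitals, the 42 and 29 bases nearest the starts are not shown, and a match of letters is no evidence of binding.
Per3: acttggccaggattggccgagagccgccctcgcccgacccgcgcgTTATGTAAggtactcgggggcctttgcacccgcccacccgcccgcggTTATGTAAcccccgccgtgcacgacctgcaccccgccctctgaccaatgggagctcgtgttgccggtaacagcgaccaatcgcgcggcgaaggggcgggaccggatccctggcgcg
Ciart: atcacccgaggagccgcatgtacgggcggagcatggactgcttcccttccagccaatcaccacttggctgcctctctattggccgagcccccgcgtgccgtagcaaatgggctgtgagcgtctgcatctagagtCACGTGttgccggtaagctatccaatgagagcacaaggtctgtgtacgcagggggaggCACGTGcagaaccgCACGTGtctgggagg

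Genes of the acute phase response, secreted by hepatocytes under cytokines such as IL-6, were in part higher in C3H/HeJ. Of 23 tested, 6 were called higher in C3H/HeJ and none higher in A/J, with a median of 0.73. That is 26.1% of the list, against 22.5% of all genes called in either direction and 13.2% called higher in C3H/HeJ. That median was 1.5, 0.47 and 0.01 on slides 1, 2 and 3, and 11 genes were called without C3H/HeJ control 2. Saa1, a serum amyloid A gene, read 4.97, 5.77, 5.97 and 6.0 in A/J and 8.55, 7.52, 8.26 and 9.25 in C3H/HeJ (difference 2.72, SE 0.37, adjusted p = 0.00132). Saa2 differed by 2.83 (adjusted p = 0.00285), and as the Saa1 and Saa2 transcripts are near copies their probes may not be independent. Socs3, the feedback inhibitor of IL-6 signals, read 1.5, 2.39, 1.83 and 1.93 in A/J and 3.34, 3.79, 3.73 and 3.65 in C3H/HeJ. The groups did not overlap (difference 1.72, SE 0.19, adjusted p = 0.000427). The metallothionein genes, induced by metals and glucocorticoids, were also higher: Mt2 read 5.67, 3.76, 5.58 and 4.31 in A/J and 6.99, 8.73, 7.53 and 9.38 in C3H/HeJ (difference 3.32, SE 0.61, adjusted p = 0.00589). Mt1 differed by 2.12 (adjusted p = 0.0209), a call lost without A/J control 2. Haptoglobin (Hp, 0.12) and C-reactive protein (Crp, 0.14) were not called.

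In the complement list, 9 of 29 genes were called higher in C3H/HeJ and 2 higher in A/J, with a median of 0.16. Among them were 6 genes of the terminal attack complex, singled out after their values were seen: C6, C8a (0.45), C8b (0.81), C8g (0.64), C9 and Hc, which encodes C5. C7, of the same complex, did not pass the background filter. Hc read 6.58, 6.70, 6.57 and 6.97 in A/J and 8.89, 9.22, 8.87 and 9.19 in C3H/HeJ, with no overlap (difference 2.34, SE 0.13, adjusted p = 1.27e-05). C9 read 3.44, 3.53, 3.65 and 3.47 in A/J and 5.20, 5.14, 5.02 and 5.35 in C3H/HeJ (difference 1.65, SE 0.10, adjusted p = 1.59e-05). C6, which is also in the male-biased list, differed by 1.47 (adjusted p = 0.00322). C4b, of the classical pathway, was instead higher in A/J at 9.45, 9.42, 9.39 and 9.36 in A/J and 7.92, 7.07, 7.79 and 8.17 in C3H/HeJ (difference -1.67, SE 0.21, adjusted p = 0.000863). The count of genes higher in A/J was 6 without A/J control 3 and 1 without A/J control 2 or C3H/HeJ control 1, 2 or 4 or with the slide as a block.

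Genes of the H2 region on chromosome 17, the mouse MHC, gave calls in both directions for class I. A/J and C3H/HeJ carry different H2 haplotypes, which need not differ at every gene of the region. Some of these probes may meet alleles that differ, which was not tested, and class I genes are close copies of each other. Of 28 class I and antigen processing genes, 11 were called higher in C3H/HeJ and 2 higher in A/J, with a median of 0.13. All 13 were called alike on the deficient diet. H2-D1, a classical class I gene, read 7.11, 7.46, 7.02 and 7.21 in A/J and 4.97, 4.84, 4.94 and 4.78 in C3H/HeJ. It was higher on every A/J array (difference -2.32, SE 0.11, adjusted p = 7.38e-06). The non-classical gene H2-T22 read 1.53, 1.85, 1.45 and 1.70 in A/J and 3.27, 3.34, 3.51 and 3.44 in C3H/HeJ (difference 1.76, SE 0.11, adjusted p = 2.16e-05). H2-Q1 was well above background on no A/J array and on all of C3H/HeJ, and its level was at least 16.2-fold higher there (adjusted p = 0.000435). H2-Q8 (-1.32) and H2-T24 (1.85, well above background on 3 of 4 A/J arrays) were called in opposite directions. The shared light chain B2m (-0.21) and the peptide transporter genes Tap1 (-0.13) and Tap2 (-0.17) were not called.

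Of 13 MHC class II genes on the array, 6 passed the background filter, which the 4 arrays of 1 strain can meet alone. All 6 were called higher in A/J, with a median of -2.15, and none of them was called on the deficient diet. These genes present extracellular peptides and are expressed by macrophages, dendritic cells and B cells. H2-Ab1 read 2.62, 3.92, 1.94 and 3.86 in A/J and 0.60, -0.19, -0.029 and 0.28 in C3H/HeJ (difference -2.92, SE 0.44, adjusted p = 0.00225), with both probes called. The H2-Ab1 probes overlap (chr17:34406305-34406363 and chr17:34406296-34406355, mm9), so they are not separate readings. Cd74, the invariant chain, read 3.46, 4.33, 2.88 and 4.20 in A/J and 1.71, 1.61, 1.60 and 1.72 in C3H/HeJ (difference -2.06, SE 0.29, adjusted p = 0.00173). H2-Eb1 differed by -2.99 (adjusted p = 0.00399). A/J control 2 and 4 were the highest in all 3 genes, and the groups did not overlap. The median was -1.71, -1.09 and -3.27 on slides 1 to 3, and 5 genes were called without A/J control 4 and C3H/HeJ control 2. The summed level of the list was 4.97 to 6.86 in A/J and 3.70 to 4.06 in C3H/HeJ. H2-Ea, H2-Eb2 and H2-DMb2 were above background on none of the arrays.

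Markers of resident macrophages moved with them. Of 25 macrophage and Kupffer cell markers tested, 12 were called higher in A/J (48%) and none higher in C3H/HeJ, with a median of -0.71. In bulk liver, fewer cells of a type and less RNA per cell cannot be told apart. Mpeg1, the perforin of macrophages, read 6.24, 6.77, 6.10 and 6.83 in A/J and 4.18, 4.18, 4.18 and 4.16 in C3H/HeJ. The 4 C3H/HeJ values lay within 0.02 log2 units of each other, below all of A/J (difference -2.31, SE 0.17, adjusted p = 4.68e-05), and both probes were called. Folr2, a folate receptor of resident macrophages, read 1.57, 1.80, 1.05 and 1.59 in A/J and -3.38, -3.28, -1.49 and -2.77 in C3H/HeJ (difference -4.24, SE 0.39, adjusted p = 0.000175). Lyz1, a lysozyme, differed by -1.48 (adjusted p = 0.00137), and the scavenger receptor gene Marco by -2.44 (adjusted p = 0.00608). The Kupffer cell markers Clec4f (-0.66), Vsig4 (-0.77) and Timd4 (-1.27) were called in the same direction, while Cd68 (-0.64) and Adgre1 (-0.94) were not called. The summed level was 8.19 to 9.02 in A/J and 7.5 to 8.02 in C3H/HeJ. The slide medians were -0.98, -0.15 and -1.32, 9 genes were called with the slide as a block and 7 without the 2 arrays that stood apart.

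Lymphocyte, endothelial, neutrophil and stellate cell markers were followed as well. Of 14 lymphocyte markers, 7 were called higher in A/J, with a median of -1.09, yet the summed level overlapped (5.62 to 6.31 in A/J and 5.86 to 6.48 in C3H/HeJ). The T cell kinase gene Lck read -0.84, 0.052, -1.09 and -0.43 in A/J and -1.96, -1.89, -1.48 and -1.92 in C3H/HeJ (difference -1.24, SE 0.24, adjusted p = 0.0076), and Thy1, a T cell surface protein, differed by -1.49 (adjusted p = 0.00797). Igkc, Klrb1c, Klrd1 and Klrk1 were above background on none of the arrays. Of 17 endothelial markers, 6 were higher in A/J and 1 in C3H/HeJ, with a median of -0.43, and the first count was 3 without C3H/HeJ control 4 and 3 without the 2 arrays that stood apart. Dnase1l3, a secreted nuclease of sinusoidal endothelium, read 1.79, 1.77, 1.30 and 1.66 in A/J and -0.035, -0.10, -0.070 and -0.57 in C3H/HeJ (difference -1.82, SE 0.16, adjusted p = 0.000123). The Fc receptor gene Fcgr2b differed by -0.97 (adjusted p = 0.00429). None of 6 neutrophil markers was called by limma at the adjusted threshold, and Mpo, Ngp, Mmp8 and Mmp9 were not above background. Of 25 genes of matrix and stellate cells, 2 were called, both higher in A/J, and 4 without A/J control 3 or C3H/HeJ control 2. How far the makeup of the livers bears on the other lists was not tested.

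Innate sensors and interferon genes split by gene and not by list. Of 30 genes of the Toll-like receptor list, 3 were higher in C3H/HeJ and 7 in A/J, with a median of -0.23. Tlr4, the receptor for lipopolysaccharide, which is inactive in C3H/HeJ through a coding variant, was well above background on 3 of 4 C3H/HeJ arrays and read -1.92, -1.54, -2.52 and -0.81 in A/J and -3.51, -3.34, -3.27 and -3.58 in C3H/HeJ (difference -1.73, SE 0.31, adjusted p = 0.0056). Nlrp12, a regulator of inflammatory signals, was at least 5.28-fold higher in A/J (adjusted p = 0.000271) and Tlr1 at least 2.08-fold (adjusted p = 0.000389). Naip2, a sensor of bacterial secretion systems, was higher in C3H/HeJ at -1.72, -1.60, -2.08 and -1.70 in A/J and 0.12, -0.33, 0.21 and -0.13 in C3H/HeJ (difference 1.74, SE 0.15, adjusted p = 0.000123). Of 49 interferon-stimulated genes, 9 were higher in C3H/HeJ and 5 in A/J (28.6% in all), with a median of 0.08, and the slide medians were 0.44, 0.5 and -0.45. With scaling to the spike-in probes 5 were called in each direction, with a median of 0.02. Dhx58, which encodes the RNA sensor LGP2, read -0.23, -0.057, -0.55 and 0.16 in A/J and 1.70, 1.26, 2.08 and 2.05 in C3H/HeJ (difference 1.94, SE 0.22, adjusted p = 0.00045). Ifi27 (1.32) and Ifi27l2b (1.16) were also higher in C3H/HeJ. Ifi202b, a DNA-binding interferon gene, read 0.34, 0.51, -0.32 and 0.97 in A/J and -6.63, -5.84, -0.68 and -5.66 in C3H/HeJ, with 1 of 4 C3H/HeJ arrays well above background (difference -5.08, SE 1.16, adjusted p = 0.0155). Here C3H/HeJ control 3 lay near the A/J arrays while the other C3H/HeJ arrays lay at -5.66 or lower, and the call was lost without A/J control 4 and C3H/HeJ control 2 (adjusted p = 0.074).

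Target genes of p53 and stress were mostly higher in A/J where they differed. Of 18 tested, 6 were called higher in A/J and 2 higher in C3H/HeJ (44.4% in all), with a median of -0.31, and no member was called alike on the deficient diet. Cdkn1a, the cell cycle inhibitor p21, read 0.61, 0.20, -0.45 and 1.59 in A/J and -3.77, -4.57, -3.62 and -3.54 in C3H/HeJ. It was well above background on all 4 A/J arrays and on 2 of 4 of C3H/HeJ (difference -4.36, SE 0.42, adjusted p = 0.000199), so the size of the difference rests in part on values not well above background. Gadd45b read 1.02, 0.16, 1.08 and -0.26 in A/J and -2.47, -2.13, -1.98 and -1.67 in C3H/HeJ (difference -2.56, SE 0.32, adjusted p = 0.00081). Gdf15, a stress hormone of the liver, differed by -1.98 (adjusted p = 0.00126). Rad51b, a recombination gene, differed by -1.65 (adjusted p = 0.000386), with 3 of 4 C3H/HeJ arrays well above background. Mdm2 (-0.16) and Bax (-0.076), also p53 targets, were not called. The count of genes higher in C3H/HeJ was 0 without C3H/HeJ control 2 or 3 or with the slide as a block, and 1 without A/J control 1 or 2 or C3H/HeJ control 1 or 4.

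In the cell cycle list, 7 of 18 genes were called higher in A/J and 2 higher in C3H/HeJ, with a median of -0.62. The first count rested on single arrays: it was 1 without A/J control 2, 3 without A/J control 4 or C3H/HeJ control 2, 2 without C3H/HeJ control 1 or 3, 1 without the 2 arrays that stood apart, and 2 with the slide as a block. Ccnd1, the cyclin of G1, read 2.13, 2.06, 1.93 and 2.57 in A/J and 0.57, -0.054, 1.10 and 0.91 in C3H/HeJ (difference -1.54, SE 0.25, adjusted p = 0.00339). Ccne1, the cyclin of S phase entry, went the other way at -0.61, -0.081, -0.23 and 0.092 in A/J and 1.46, 1.15, 1.32 and 1.86 in C3H/HeJ (difference 1.66, SE 0.19, adjusted p = 0.000577), with both probes called.

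The study varied methyl donors, and the genes of that metabolism differed between the strains at about the background rate. Of 40 genes of methionine, folate and choline metabolism, 6 were higher in C3H/HeJ and 3 in A/J (22.5% in all), with a median of 0.13, and the first count was 3 without A/J control 2 or 4 or with scaling to the spike-in probes. The second was 5 without A/J control 4. Ahcy, which hydrolyses the S-adenosylhomocysteine left by methylation, read 7.0, 6.74, 7.01 and 6.37 in A/J and 5.06, 5.56, 4.93 and 5.13 in C3H/HeJ (difference -1.61, SE 0.18, adjusted p = 0.000513), but 1 of its 3 probes was called and the others ranged up to 0.10. Mthfd1l, a mitochondrial folate enzyme, was well above background on 3 of 4 A/J arrays and read -3.08, -2.60, -2.91 and -1.92 in A/J and -1.19, -0.76, -1.22 and -1.16 in C3H/HeJ (difference 1.55, SE 0.24, adjusted p = 0.00275). The choline and methionine genes Bhmt (0.16), Pemt (0.29), Mat1a (-0.45) and Cbs (-0.072) were not called. Outside that list, Id1, a target of BMP signals counted with iron handling, read 4.03, 3.35, 4.14 and 2.06 in A/J and 0.16, -0.33, 0.049 and 0.57 in C3H/HeJ (difference -3.28, SE 0.43, adjusted p = 0.00116), while the iron hormone gene Hamp was not called (0.78). Akr1c19, an aldo-keto reductase, differed by 2.45 (adjusted p = 0.000418), and Cyp2c55, a drug-metabolising P450, by 2.68 (adjusted p = 0.000156).

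A list of 15 tested genes noted for variants among inbred strains gave 6 calls, 3 in each direction, and all 6 were called alike on the deficient diet. Whether A/J or C3H/HeJ carries a variant of each gene was not tested. Dysf, whose loss through an inserted element causes muscle disease in A/J, was well above background on no A/J array and on all 4 of C3H/HeJ. It read -5.23, -6.17, -6.05 and -5.68 in A/J and 0.079, -0.59, 0.085 and -0.080 in C3H/HeJ, at least 16.1-fold higher in C3H/HeJ (adjusted p = 5.40e-06). Hc, of which A/J makes no functional protein, and Tlr4 and H2-D1 are given above. Gusb, the lysosomal glucuronidase, differed by 0.43 (adjusted p = 0.0102), and its other probe, well above background on no A/J array, was at least 11.4-fold higher in C3H/HeJ. Glo1, a glyoxalase gene with copy number variants among strains, differed by -0.65 (adjusted p = 0.0129). Ahr (0.026), Alad (-0.18), Apoa2 (0.12), Car3 (-0.014), Gsta4 (-0.38), Kit (-0.39), Naip5 (0.074), Nnt (0.012) and Tyr (0.27) were not called. For Nnt, the proton-pumping transhydrogenase, the other probe was called and gave 1.79, with 2 of 4 A/J arrays well above background.

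Some genes were detected in a single strain on the control diet. Of the called genes, 41 were well above background on all 4 C3H/HeJ arrays and on no A/J array, and 48 the reverse. Tmc5, a membrane protein of the transmembrane channel-like family, read -5.55, -6.48, -6.36 and -6.17 in A/J and 2.82, 1.78, 2.69 and 3.42 in C3H/HeJ. It was at least 112-fold higher in C3H/HeJ (adjusted p = 3.45e-06). Dkk4, a secreted inhibitor of Wnt signals, read -5.65, -5.96, -6.49 and -6.61 in A/J and 0.41, 2.45, 1.57 and 1.51 in C3H/HeJ, at least 49-fold higher (adjusted p = 1.03e-05). Further genes seen in C3H/HeJ were Obp2a, an odorant-binding lipocalin (at least 31.4-fold), the melanocortin receptor gene Mc3r (at least 27-fold), the protease inhibitor gene Spink6 (at least 20.3-fold) and the potassium channel gene Kcnk1 (at least 18.9-fold). On the A/J side, besides Cyp2b13, Raet1a, a ligand of the NKG2D receptor, read 2.05, 0.11, 1.73 and 1.56 in A/J and -5.79, -6.16, -5.14 and -5.20 in C3H/HeJ, at least 41.1-fold higher (adjusted p = 1.80e-05). A130072N09Rik was at least 46.7-fold and Ncmap, a myelin-associated protein, at least 18.6-fold higher. Each of these genes had no overlap between the groups, which their choice by detection made nearly certain.

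Several probes per gene allowed a partial check of the calls. Probes were counted apart when their sequences differed, even where they overlapped on the genome, and overlapping probes can share a strain variant. Of the 3098 called genes, 2343 had 1 probe tested and 755 had 2 or more. Of those 755, 392 (51.9%) had 2 or more probes called alike, 626 (82.9%) had all probes in the same direction and 26 had a probe called in the opposite direction. The share was higher among larger differences, at 137 of 197 (69.5%) for 1 log2 unit or more and 17 of 19 (89.5%) for 3 or more. Over all 3627 genes with 2 or more probes, 426 had at least 2 called alike and 31 had probes called in opposite directions.

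Of the genes with 2 or more probes called alike, Dct, a melanin synthesis enzyme, had the largest difference toward C3H/HeJ. It read 0.46, -0.93, 1.63 and -0.61 in A/J and 6.03, 5.05, 4.67 and 4.98 in C3H/HeJ (difference 5.05, SE 0.55, adjusted p = 0.000413), and its other probe gave 5.01. The Dct probes overlap (chr14:118412029-118412088 and chr14:118412013-118412072, mm9), so a strain variant could lie under both and they are not separate readings. Hjurp, a chaperone of the centromeric histone, read -0.29, -0.80, -0.070 and -0.37 in A/J and 3.17, 4.17, 3.70 and 3.47 in C3H/HeJ (difference 4.01, SE 0.23, adjusted p = 1.38e-05), and all 4 of its probes were called in that direction, 1 of them well above background on no A/J array. Others on the C3H/HeJ side were Zfp605 (3.71), Osbpl3 (3.32), Adrb3, a beta-adrenergic receptor (3.20), Ccdc122 (3.13), Lnx1 (2.40), the imprinted RNA Meg3 (2.17), Plekha7 (2.06) and the SUMO-activating subunit Sae1 (2.00). Of these, Zfp605, Ccdc122, Lnx1 and Meg3 were well above background on 3 of 4 A/J arrays. On the A/J side, besides Ugt1a10, Cyp4a10, Cyp4a31, H2-Ab1, Acot3 and Mpeg1, these were Ttc39a (-2.63), Car8 (-2.49), the spliceosome protein gene Snrnp25 (-2.47), the glutamate transporter gene Slc1a2 (-2.23), Lilra6 (-2.22) and Rdh16f2 (-2.15). Snrnp25, as an example of a bright gene, read 5.76, 5.64, 5.71 and 5.45 in A/J and 3.06, 3.50, 3.18 and 2.95 in C3H/HeJ (difference -2.47, SE 0.13, adjusted p = 1.15e-05).

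Genes whose probes opposed each other included 5 besides Hsd17b13. Galnt14, a mucin-type glycosyltransferase, gave -2.69 by its brightest probe and 1.46 by the other, with the first probe well above background on 2 of 4 C3H/HeJ arrays. Cd6, a T cell receptor, gave -2.08 by its brightest probe, again with 2 of 4 C3H/HeJ arrays well above background. Its other probe, well above background on no A/J array, was at least 2.24-fold higher in C3H/HeJ. Zfp984 gave 1.77 by the brightest and -1.27 and -1.25 by the others. Msh5, a meiotic mismatch repair gene, gave -1.02 and 1.57. Agxt2, an aminotransferase, had 3 probes higher in C3H/HeJ (0.50, 0.56 and 2.18) and 1 higher in A/J (-0.46). For all of these the direction depends on the probe.

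**Figure D4:**
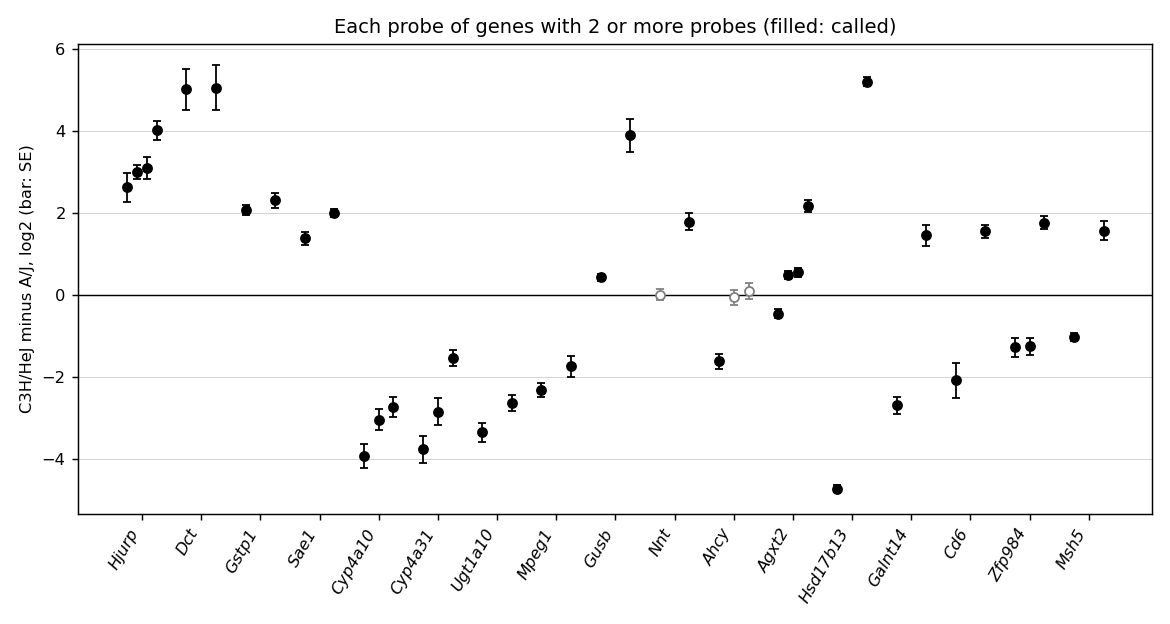
Difference between the strains (C3H/HeJ minus A/J, log2, y axis) for each probe of genes with several probes (x axis), with bars for the SE, filled points for probes called and open grey points for those not called. The probes of Hjurp, Dct, Gstp1, Sae1, Cyp4a10, Cyp4a31, Ugt1a10 and Mpeg1 lie on the same side, while those of Hsd17b13, at -4.71 and 5.20, and of Galnt14, Cd6, Zfp984, Msh5 and Agxt2 lie on both sides of 0, with values not well above background drawn as measured.

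Called genes were spread over all chromosomes at uneven rates. The share was highest among autosomes on chromosome 7 (344 of 1113 genes, 30.9%) and chromosome 17 (188 of 694, 27.1%), and lowest on chromosome 9 (125 of 734, 17.0%). The 10 Mb window with the highest share among those with at least 20 genes was chr7:100000001-110000000 (mm9), with 42 of 89 genes called (47.2%), 24 higher in C3H/HeJ and 18 in A/J. Differences of this kind were described and not tested.

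The 8 arrays of the same strains on the deficient diet allowed the differences to be read again in other samples. There 2137 genes were called (15.5%), 1139 higher in C3H/HeJ (8.27%) and 998 higher in A/J (7.25%). Of the 3098 calls on the control diet, 1247 were called in the same direction there (40.3% of the control-diet calls, 58.4% of the deficient-diet calls), 20 were called in the opposite direction, and 2684 (86.6%) had the same sign. Of the 1002 at 1 log2 unit or more, 608 (60.7%) were called alike, and of the 392 with several probes called alike, 174 (44.4%). Tmc5 was again well above background on no A/J array and at least 160.2-fold higher in C3H/HeJ (adjusted p = 1.77e-08), as was Dysf, at least 26.1-fold (adjusted p = 7.87e-06). Pparg differed by -2.52 (adjusted p = 0.000483). Hsd17b13 gave -4.96 by its brightest probe (adjusted p = 5.67e-07). Folr2 gave -4.62 (adjusted p = 5.67e-07).

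The strain difference itself differed between the diets for 188 genes by the limma interaction (1.36%), 114 of them among the control-diet calls. The control-diet arrays entered both the calls and the interaction, so that overlap is not independent. Cdkn1a read 0.58, 0.44, 1.02 and -0.30 in A/J and 0.11, 0.44, -0.13 and -0.68 in C3H/HeJ on the deficient diet. All 8 of those arrays were well above background for it, and the strain difference there was -0.50 (interaction adjusted p = 0.00477). Obp2a was well above background on none of the 8 deficient-diet arrays, as on none of the A/J control arrays (interaction adjusted p = 0.00374). The sizes of both interactions rest on values not well above background. Ttc39a showed a strain difference of -0.050 there against -2.63 (interaction 2.58, adjusted p = 0.000305). Cyp4a14 stayed higher in A/J, at -4.66 against -8.49 (interaction 3.84, adjusted p = 0.0369). Of the lists above, 13 of 13 called class I genes, 8 of 11 called genes of fatty acid oxidation, 4 of 8 female-biased genes and 3 of 12 male-biased genes were called alike on the deficient diet. None of the 5 called major urinary protein genes was, nor any of the 6 class II genes.

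**Figure D5:**
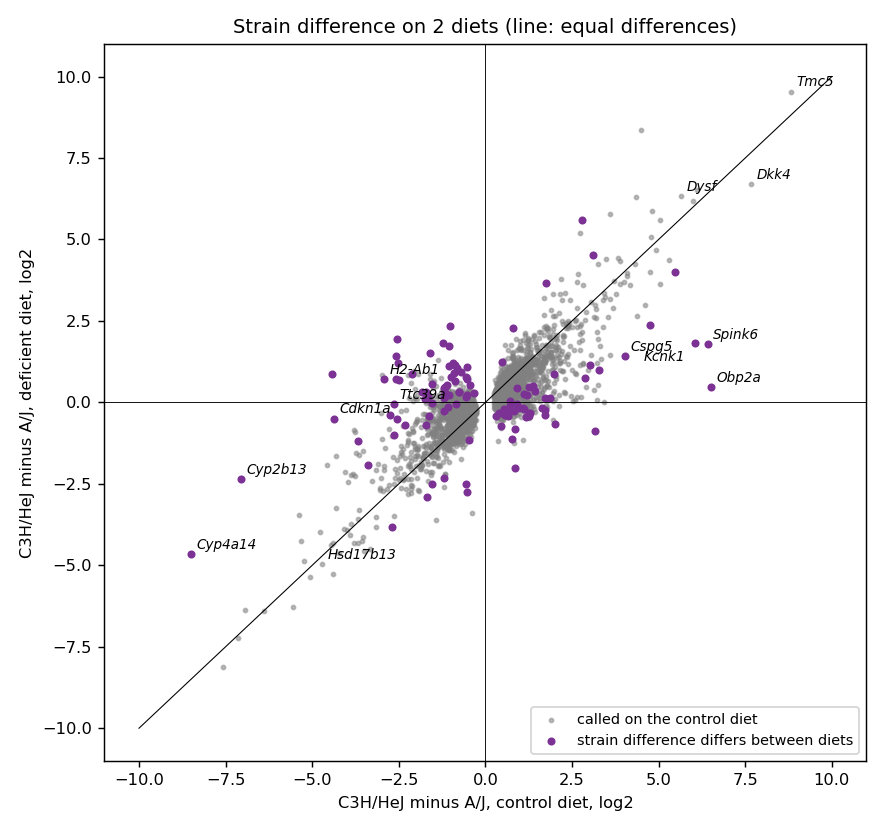
Strain difference (C3H/HeJ minus A/J, log2) on the deficient diet (y axis) against the control diet (x axis) for each gene called on the control diet, with the line of equal differences and with purple points for genes whose strain difference differed between the diets. Tmc5, Dkk4, Dysf and Hsd17b13 lie near the line, while Cdkn1a, Obp2a, Kcnk1, Spink6 and Ttc39a lie nearer to 0 on the deficient diet, with values not well above background drawn as measured.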

How the data were processed

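The comparison and its gene lists were chosen with earlier results of these data known. Labelled RNA from each liver was read on a single-colour Agilent array, and per the file headers the authors deposited processed signal intensities, background-subtracted and detrended within each array but not scaled between arrays (Agilent Feature Extraction 10.7, per the submitters' processing notes; probe coordinates are mm9). The authors' deposited normalized table held the same intensities times 1 constant per array, as a check of its values showed, and served as an alternative. From the signals, log2 was taken and the 75th percentile of each array subtracted. Control and outlier spots (0.234%) were left out, spots of a probe were averaged, and probes had to be well above background on all 4 arrays of a strain. Genes were named through RefSeq accessions, then symbols (33036 of 55681 probes named). limma 3.58.1 (R 4.3.3) was fitted to the 8 arrays over 13775 genes, with Benjamini-Hochberg adjustment, and to 18215 probes. In a simulation of this comparison over 13775 genes, it called 77 of 100 genes changed by 1 log2 unit and 94 of 100 changed by 2, with 22 false calls. As a share of all simulated calls, the false ones exceeded the 0.05 that the adjustment aims at. Far fewer genes were changed there than the 3098 called in the data, and genes were drawn independently, so these rates need not hold for the data. Figures were drawn with matplotlib 3.10.9.

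Named genes are the 12 largest non-overlapping differences in each direction with 2 or more probes called alike and none opposed, the 6 largest lower-bound folds each way, up to 6 genes with opposed probes, the 3 lowest adjusted p of each list and the known strain variants. Not all of these are described, and some results are not reported here. Other genes were chosen after their values were seen, among them Dntt, C6, Hsd3b5, Cyp2b9, Nipal1, Acot1, Acot2, Pdk4, Vnn1, Ehhadh, Cidea, Mogat1, Fitm1, Plin3, Ciart, Dbp, Tef, Per2, Cry2, Nfil3, Clock, Mt1, Mt2, H2-Q8, H2-T24, Gdf15, Ifi202b, Marco, the Y-linked genes and all uncalled genes outside the strain variants. The alternatives concern scaling, background, filters, probe choice, samples, blocks and thresholds.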

Additional observations from a re-analysis of the deposited data

Results flagged for a closer look

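Of the 142 genes followed, 17 showed a strain difference that differed between the diets by the limma interaction over 16 arrays, against 1.36% of all genes tested. Many of the genes followed were chosen by their control-diet values, which also enter the interaction, so the 2 shares are not like for like. The value given is the strain difference (C3H/HeJ minus A/J, log2) on the deficient diet minus that on the control diet. Among genes higher in A/J on the control diet it was 4.70 for Cyp2b13 (adjusted p = 0.0347), 3.84 for Cyp4a14 (adjusted p = 0.0369), 3.20 for Mogat1 (adjusted p = 0.0288), 3.63 for H2-Ab1 (adjusted p = 0.0426) and 1.60 for Mpeg1 (adjusted p = 0.0109). It was 3.86 for Cdkn1a (adjusted p = 0.00477), 1.82 for Rad51b (adjusted p = 0.0246), 2.05 for Gadd45b (adjusted p = 0.0346) and 2.10 for Ccnd1 (adjusted p = 0.0122). It was 1.45 for Ugt3a1 (adjusted p = 0.0346) and 2.58 for Ttc39a (adjusted p = 0.000305). These 11 differences were all nearer to 0 on the deficient diet or changed sign there, while Galnt14, whose probes oppose each other, moved further from 0, by -1.13 (adjusted p = 0.0489). Genes chosen for a large control-diet difference tend to lie nearer to 0 on the other diet by that choice alone. Among genes higher in C3H/HeJ it was -2.61 for Cspg5 (adjusted p = 0.013), -1.58 for Socs3 (adjusted p = 0.0346), -6.04 for Obp2a (adjusted p = 0.00374), -4.63 for Spink6 (adjusted p = 0.0417) and -4.22 for Kcnk1 (adjusted p = 0.00374). Some of these sizes rest on values not well above background. Obp2a, Spink6 and Kcnk1 were not well above background on any A/J array of either diet, and on the deficient diet they were so on 0, 1 and 3 of 4 C3H/HeJ arrays. Cyp2b13 was well above background on no C3H/HeJ control array, Mogat1 on 1, Cdkn1a and Galnt14 on 2 and Cyp4a14 and Rad51b on 3.

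In 17 of 284 groups of 4 arrays, 1 array stood apart: its gap to the nearest other array, as a share of the range of the group, passed the Dixon value of 0.829, which chance passes in about 1 group in 20. The share was highest for Tef on C3H/HeJ control 2 (0.956), with A/J control 4 apart for Tef at the low end (0.88). C3H/HeJ control 2 also stood apart for Mthfd1l (0.881), Cyp2c55 (0.83), Gusb (0.872), Osbpl3 (0.851) and Ccdc122 (0.847). C3H/HeJ control 4 did so for Pparg (0.845), Mpeg1 (0.905), Dnase1l3 (0.888) and Ahr (0.834), and C3H/HeJ control 3 for Lck (0.852), Ifi202b (0.837) and Agxt2 (0.859). On the A/J side, control 1 stood apart for Saa2 (0.894) and Obp2a (0.95), and control 2 for Cd6 (0.83).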

How the results depend on the processing

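The alternative without A/J control 4 and C3H/HeJ control 2 was chosen after seeing the data. The number of genes called was 3035 (1607 higher in C3H/HeJ, 1428 higher in A/J) with quantile normalization and 2420 with normexp. Scaling to the E1A spike-in probes gave 2406, of which 1155 were higher in C3H/HeJ, so the share higher in C3H/HeJ went from 58.8% to 48%. With no background filter 1914 of 23909 genes were called (1078 and 836), and with the next brightest probe 746 of 3627 (413 and 333). At an adjusted p of 0.01 there were 1490 (875 and 615), with 176 genes that had several probes called alike. With a difference of at least 1 log2 unit there were 1002 (510 and 492). Leaving out each array in turn gave 2190 to 3055 calls, 1307 to 1799 higher in C3H/HeJ, 870 to 1259 higher in A/J, 274 (without A/J control 2) to 430 genes with several probes called alike, and 1057 to 1243 called alike on the deficient diet.

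The replicate numbers did not pair the samples (correlations of the deviations of same-numbered arrays 0.041, -0.024, -0.088 and -0.007), and only number 1 matched best with its own number. With the replicate number as a block 2288 genes were called (1332 and 956), and 296 of all genes tested had several probes called alike. With the slide as a block 2758 were called (1597 and 1161), and 2468 were called as above.

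Direction changed with the probe for 6 genes. The next brightest probe gave 5.20 for Hsd17b13, -0.23 for Cry2, 1.55 for Cd6 (by a probe well above background on no A/J array), 1.46 for Galnt14, -1.27 for Zfp984 and 1.57 for Msh5, and the mean of the probes gave 0.25 for Hsd17b13, -0.25 for Zfp984 and 0.28 for Msh5. Of the 133 genes followed that were called, 127 kept call and direction when each array was left out and 128 without the 2 arrays. The scaling moved the median over all genes between -0.013 and 0.065.

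With 4 arrays a strain, probes near background give only bounds, and 2343 called genes rest on 1 probe. Strain variants under the probes, the hour of collection and the makeup of the livers were not tested.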

Other observations

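Further lists were read against the 22.5% of all genes that were called. Of 36 genes of glutathione transfer and antioxidant defence, 3 were higher in C3H/HeJ and 6 in A/J (25% in all), with a median of -0.17, and the second count was 3 without A/J control 1 or 2 or C3H/HeJ control 3. Of 29 genes of the urea cycle and amino acid breakdown, 5 were called, all higher in C3H/HeJ, with a median of 0.16. That count was 3 without A/J control 2, and with spike-in scaling, quantile normalization or median centring it was 4, with 1 gene higher in A/J. Of 27 serpin genes, 5 were higher in C3H/HeJ and 4 in A/J (33.3% in all). Of 27 coagulation genes 1 was called in each direction, and with quantile normalization 3 were higher in A/J. Of 21 genes of the unfolded protein list 2 were called in each direction, with a median of -0.04, and 1 was higher in C3H/HeJ without any array other than A/J control 3 or under those 3 scalings. Of 25 genes of gluconeogenesis, glycogen and glycolysis 1 was called in each direction, with a median of -0.01. The count higher in A/J was 3 without A/J control 3 or 4 or with the slide as a block and 2 under those scalings, and without C3H/HeJ control 2 it was 2 in each direction. Of 16 chemokine and inflammatory genes, 3 were higher in A/J, with a median of -0.65. That count was 6 without A/J control 3, 5 with scaling to the spike-in probes and 1 without the 2 arrays that stood apart. None of 7 erythroid markers was called by limma at the adjusted threshold.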
